A study of Mus musculus with 12 samples.

Results

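Genes whose proteins the liver secretes into the plasma were followed in RNA of mouse kidney cortex. They were F2, A2m, Alb, Ahsg, Apoh, Hp, Hpx, Fga, Fgb and Fgg, chosen by symbol, and all 10 were found among the 27412 gene IDs of the deposited count table. The choice was made with the genotype comparison and the 2 kidneys of animal 17-53 in view, so the members' values in both are a description and carry no test.

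The HIF2aM3 group was 3 male mice (17-51, 17-53 and 17-56) of genotype γ-HIF2αM3 TG+, and the WT group was 3 wild-type male mice, all on C57BL/6 and untreated. The series title places the transgene under the γ-glutamyl transferase (GGT) promoter, which is known to be active in the proximal tubule, and HIF2α, the product of Epas1, is a hypoxia-inducible transcription factor. Each kidney gave 1 library from a thin outer slice of cortex, so each animal gave 2 and the study 12. The labels give no age and do not say whether the shared prefix 17 marks 1 transgenic line.

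Hepatocytes secrete most plasma proteins, and their genes are known to be driven by a small set of liver factors, among them HNF4 and C/EBP proteins, several of which the proximal tubule also expresses. The coagulation cascade ends when prothrombin (F2) is cleaved to thrombin, which cuts fibrinogen, a complex of the chains encoded by Fga, Fgb and Fgg, into fibrin. α2-Macroglobulin (A2m) traps proteases, thrombin among them, and apolipoprotein H (Apoh) binds phospholipid surfaces. Albumin (Alb) and fetuin A (Ahsg) are carriers, while haptoglobin (Hp) and hemopexin (Hpx) bind hemoglobin and heme released from red cells. Fibrinogen, Hp and Hpx are classical acute phase proteins, which the liver makes in larger amounts under interleukin 6.

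Promoter sequences were available from RefSeq (GRCm38.p6) for 8 of the 10 members, the exceptions being A2m and Hp. The 250 bases before the start are shown 5′ to 3′ on the gene's strand for 5 genes, because F2 stands apart from the other members in the values that follow, Alb is the classical liver promoter, and the fibrinogen genes Fga, Fgb and Fgg are neighbours. Capitals mark matches, on either strand, to 5 motifs given as letters: ACGTG and GCGTG (hypoxia response element core), TTGCNNAA (C/EBP), TTCNNNGAA (STAT) and CAAAGTCCA (HNF4). The F2 stretch is chr2:91636458-91636707 (minus strand), Alb chr5:90460620-90460869 (plus), Fga chr3:83025903-83026152 (plus), Fgb chr3:83049864-83050113 (minus) and Fgg chr3:83007474-83007723 (plus).
F2: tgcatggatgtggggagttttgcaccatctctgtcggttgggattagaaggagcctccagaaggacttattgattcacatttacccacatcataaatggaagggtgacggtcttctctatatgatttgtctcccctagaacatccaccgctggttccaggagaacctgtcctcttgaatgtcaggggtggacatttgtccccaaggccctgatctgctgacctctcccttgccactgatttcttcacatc
Alb: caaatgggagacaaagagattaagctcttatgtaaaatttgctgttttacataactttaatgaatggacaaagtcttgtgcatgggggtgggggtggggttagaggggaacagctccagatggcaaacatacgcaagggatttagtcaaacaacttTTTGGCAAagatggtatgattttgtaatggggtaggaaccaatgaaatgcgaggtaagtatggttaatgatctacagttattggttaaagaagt
Fga: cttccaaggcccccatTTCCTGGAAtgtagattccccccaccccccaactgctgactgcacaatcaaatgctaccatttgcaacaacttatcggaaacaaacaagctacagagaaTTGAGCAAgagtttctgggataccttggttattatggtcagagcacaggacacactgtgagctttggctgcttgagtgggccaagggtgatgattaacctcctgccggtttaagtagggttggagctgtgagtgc
Fgb: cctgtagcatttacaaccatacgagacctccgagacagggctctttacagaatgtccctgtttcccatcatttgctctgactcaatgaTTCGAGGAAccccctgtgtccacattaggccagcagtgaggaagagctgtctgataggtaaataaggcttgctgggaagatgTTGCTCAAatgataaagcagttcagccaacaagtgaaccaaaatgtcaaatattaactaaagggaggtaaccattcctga
Fgg: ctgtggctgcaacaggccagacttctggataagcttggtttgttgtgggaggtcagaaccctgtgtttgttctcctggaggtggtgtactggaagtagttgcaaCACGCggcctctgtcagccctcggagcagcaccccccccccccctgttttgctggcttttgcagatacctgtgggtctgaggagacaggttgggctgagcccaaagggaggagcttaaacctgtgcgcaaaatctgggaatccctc
The search also covered the 50 bases after each start, 300 bases in all. None of the 8 members held ACGTG, found in 19.6% of all 32851 promoters in the table, and GCGTG (32.4%) was present in Fgg and Ahsg. F2 held no match to any of the 5 motifs. TTGCNNAA was in Alb, Fga, Fgb, Hpx and Ahsg (10.8% of all promoters), TTCNNNGAA in Fga and Fgb (8.30%), and CAAAGTCCA in no member (0.475%). No 2 of these matches overlapped in the sequences shown. The nearest GENCODE M21 transcript start lay 43 bases after the RefSeq start for F2, 27 for Alb and 62 for Fga and at it for Fgb and Fgg, so matches and their absence hold for the RefSeq start only. A match is a run of letters and not evidence of binding.

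Library totals were 24032148 to 43499743 counts, except kidney 2 of 17-51 with 4161829, where 3 reads are worth 0.710 CPM (counts scaled to library size). The 12 proximal tubule markers were detected in all libraries, summing to 30725 to 35082 CPM per HIF2aM3 animal and 29681 to 36071 CPM per WT animal. Epas1 averaged 267 ± 16.7 CPM in HIF2aM3 and 204 ± 30.9 CPM in WT animals (SD, n = 3 each), with a log2 fold change of HIF2aM3 over WT of 0.39 ± 0.11 (SE). Its p, from the quasi-likelihood test of edgeR and adjusted over all genes by Benjamini-Hochberg, was 0.0881, above the threshold of 0.05. The labels do not say whether transgene reads count under Epas1. Of 19564 genes tested between genotypes, 377 (1.93%) were called higher and 356 (1.82%) lower in HIF2aM3. The filter on low counts left 8 of the 10 members, without Ahsg and Hpx. Of these 8, F2 and A2m were past the threshold on the higher side and Apoh on the lower side, and the other 5 were not past it, a count that the choice of members used. The animals of the genotypes did not overlap for 4 of them (F2, A2m, Apoh and Fgb), where 32.0% of all genes tested did not overlap.

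F2, which encodes prothrombin, was at 2.97 and 0.473 CPM in the 2 kidneys of 17-51, 7.08 and 1.08 CPM in those of 17-53 and 2.25 and 1.95 CPM in those of 17-56, against 0 CPM in all 4 kidneys of WT 1 and WT 2 and 0.1002 and 0.0291 CPM in those of WT 3. Every HIF2aM3 library was above every WT library, and the lowest HIF2aM3 value stood on 2 reads. In all, 563 reads were counted in HIF2aM3 and 4 in WT animals, a depth-scaled ratio of 146 with an exact 95% counting interval of 56.7 to 537. The 0 counts allow up to 0.0594 CPM in WT 1 and 0.0450 CPM in WT 2. The animals averaged 2.97 ± 1.06 CPM in HIF2aM3 and 0.0207 ± 0.0358 CPM in WT (SD, n = 3 each), and the fitted log2 fold change was 6.96 ± 0.66 (SE). All WT reads came from WT 3, and without that animal the fitted value, 10.45, rests on no WT read. Intervals and limits of this kind cover counting error only, since PCR reads without molecular identifiers are not independent molecules.

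A2m, the α2-macroglobulin gene, was at 7.12 and 4.97 CPM in the kidneys of 17-51, 15.1 and 6.32 CPM in those of 17-53 and 8.96 and 6.85 CPM in those of 17-56, against 0.0803 and 0.117 CPM in WT 1, 0.0536 and 0.102 CPM in WT 2 and 0.267 and 0.233 CPM in WT 3. The groups did not overlap, and the lowest HIF2aM3 library was far above the highest WT library. The read counts were 1606 in HIF2aM3 and 26 in WT animals, a ratio of 64.0 (43.5 to 98.3), and the fitted log2 fold change was 5.89 ± 0.36 (SE). No relative of A2m passed the threshold. Pzp, the pregnancy zone protein gene of the same family, averaged 136 ± 18.9 CPM in HIF2aM3 and 114 ± 18.2 CPM in WT animals, a log2 fold change of 0.25 ± 0.14 (edgeR adjusted p = 0.308), and C3 and C4b, complement genes of the family, were not past the threshold either. The longest exact stretch that the longest A2m and Pzp transcripts share was 23 bases. Mug1 and Mug2, with stretches of 29 and 41 bases, were not analysed here, so reads of A2m that match them remain uncertain. In bulk tissue a larger number of cells with these RNAs and more RNA per cell cannot be told apart.

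**Figure D1:**
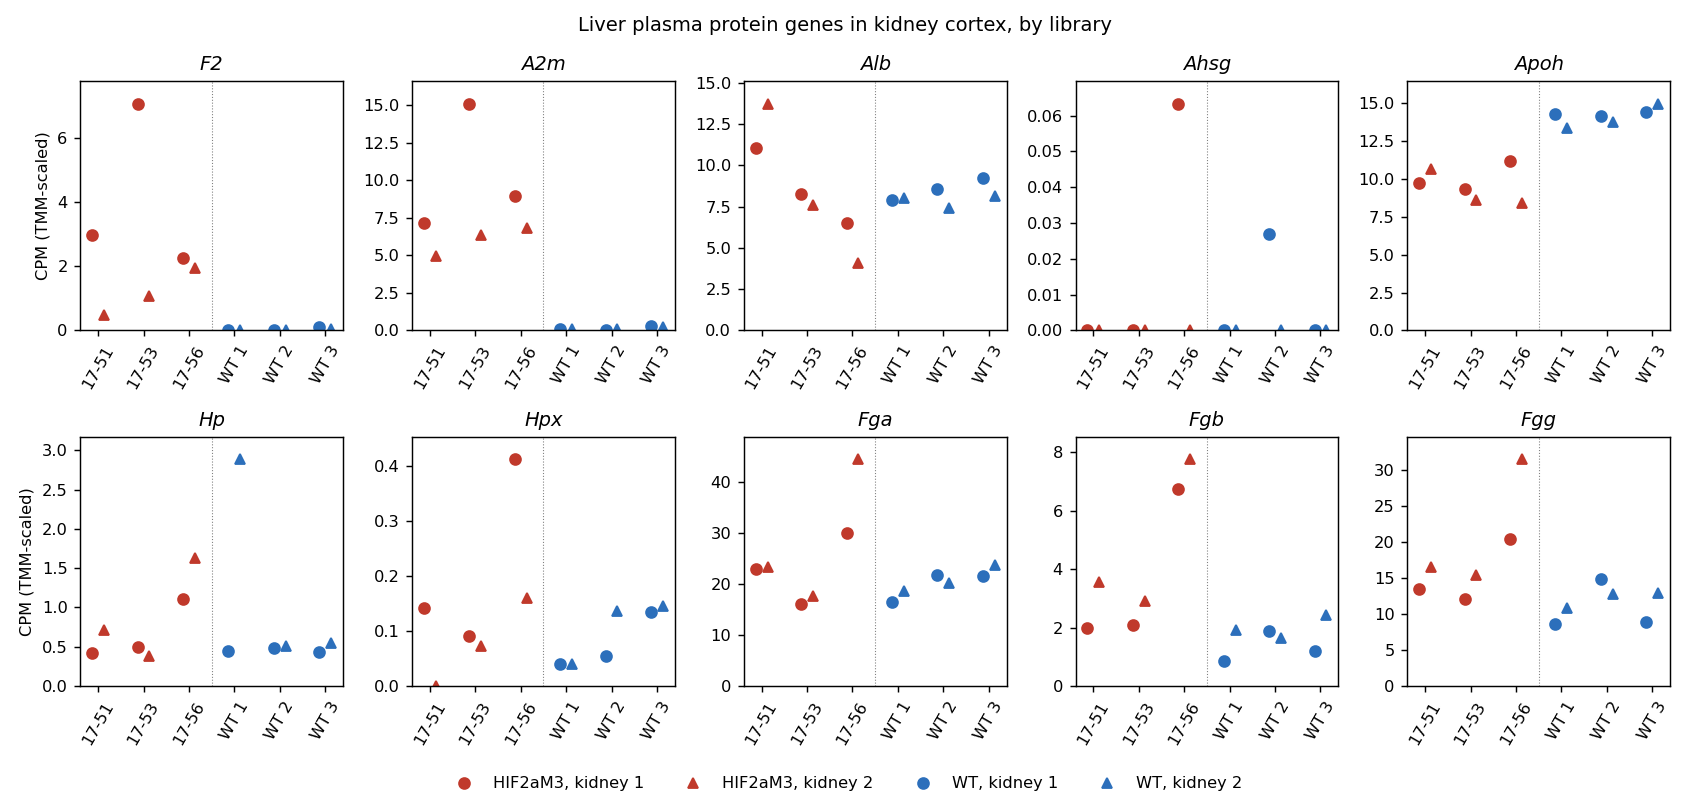
CPM of the 10 members in each library, with HIF2aM3 animals left of the dotted line and WT animals right of it; circles are kidney 1 and triangles kidney 2. F2 and A2m separate the genotypes completely, Apoh is lower in all 6 HIF2aM3 libraries, and the fibrinogen genes are highest in 17-56.

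Apoh was lower in the HIF2aM3 cortex. It was at 9.70 and 10.7 CPM in the kidneys of 17-51, 9.32 and 8.57 CPM in those of 17-53 and 11.2 and 8.40 CPM in those of 17-56, against 14.3 and 13.4 CPM in WT 1, 14.1 and 13.8 CPM in WT 2 and 14.4 and 14.96 CPM in WT 3. The highest HIF2aM3 library stayed below the lowest WT library. The animals averaged 9.56 ± 0.526 CPM in HIF2aM3 and 14.1 ± 0.454 CPM in WT (SD, n = 3 each), a log2 fold change of -0.57 ± 0.07 (SE). In the GENCODE M21 annotation Apoh overlaps Prkca, a protein kinase C gene, in exons on the opposite strand. Neither the labels nor the file header says whether counting used strand, so reads of the pair cannot be separated. Prkca itself was at 29.8 ± 1.04 CPM in HIF2aM3 and 32.5 ± 3.20 CPM in WT animals, a log2 fold change of -0.12 ± 0.08 (edgeR adjusted p = 0.369).

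Alb was present in every library of both genotypes. It was at 11.05 and 13.7 CPM in 17-51, 8.26 and 7.59 CPM in 17-53 and 6.49 and 4.06 CPM in 17-56, against 7.91 and 7.997 CPM in WT 1, 8.55 and 7.41 CPM in WT 2 and 9.22 and 8.15 CPM in WT 3. The HIF2aM3 libraries spread on both sides of the WT libraries, which lay close together. The averages were 8.23 ± 3.01 CPM in HIF2aM3 and 8.20 ± 0.363 CPM in WT animals (SD, n = 3 each), and the log2 fold change was -0.01 ± 0.24 (SE), its sign changing with the scaling (0.01 with library size alone). Among its neighbours on chromosome 5, Afp, the fetal homologue of albumin, had a log2 fold change of 0.73 ± 0.26 (edgeR adjusted p = 0.144), and Afm, the vitamin E carrier afamin, one of -0.12 ± 0.15 (adjusted p = 0.684). Ahsg had 2 reads in the HIF2aM3 group, both in kidney 1 of 17-56, and 1 read in the WT group, in kidney 1 of WT 2. Counts of 0 allow up to 0.0923 CPM in 17-51 and 0.0349 CPM in 17-53, and up to 0.0594 CPM in WT 1 and 0.0465 CPM in WT 3.

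The fibrinogen chain genes were present in every library and were highest in 17-56. Fga was at 22.9 and 23.2 CPM in 17-51, 16.1 and 17.7 CPM in 17-53 and 29.9 and 44.4 CPM in 17-56, against 16.4 and 18.6 CPM in WT 1, 21.8 and 20.1 CPM in WT 2 and 21.5 and 23.7 CPM in WT 3. Only the kidneys of 17-56 lay above all WT libraries. Fgb was at 1.98 and 3.55 CPM in 17-51, 2.09 and 2.90 CPM in 17-53 and 6.75 and 7.76 CPM in 17-56, against 0.843 and 1.91 CPM in WT 1, 1.88 and 1.64 CPM in WT 2 and 1.20 and 2.44 CPM in WT 3. Summed per animal, Fgb was higher in all 3 HIF2aM3 animals (2.18, 2.48 and 7.17 CPM) than in any WT animal (1.39, 1.77 and 1.86 CPM). Fgg was at 13.4 and 16.6 CPM in 17-51, 12.1 and 15.4 CPM in 17-53 and 20.3 and 31.4 CPM in 17-56, against 8.63 and 10.8 CPM in WT 1, 14.9 and 12.8 CPM in WT 2 and 8.92 and 12.9 CPM in WT 3. Its animals overlapped between the genotypes through WT 2.

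The log2 fold changes were 1.24 ± 0.46 (SE) for Fgb, 0.60 ± 0.26 for Fgg and 0.31 ± 0.27 for Fga. Animal 17-56 decided their size: without it they were 0.48 ± 0.18, 0.25 ± 0.15 and -0.05 ± 0.16. Across the 12 libraries, log2(CPM + 0.5) of Fgb and Fgg had a Pearson r of 0.940, Fga and Fgg 0.839, and Fga and Fgb 0.805, while Alb and Apoh had 0.225, Alb and Fgg -0.530 and Apoh and Fgg -0.631. These are descriptions, since the points share animals, genotypes and depth. Fgg overlaps the unnamed gene model Gm30097 in exons on the opposite strand, so its reads carry the same uncertainty as those of Apoh.

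Markers of tubular injury and macrophages stood apart in the library where Fga, Fgb and Fgg were highest. Markers of proximal tubule were a little below those of every other library there. The 15 tubular injury genes summed to 2490 CPM in kidney 2 of 17-56, against 1026 to 1139 CPM in the other 5 HIF2aM3 libraries and 1112 to 1436 CPM in the WT libraries. Most of that sum was Spp1, at 1744 CPM there and 651 to 834 CPM in the other libraries. Clu (439 CPM) and Krt8 (20.9 CPM) lay within the range of the WT libraries (335 to 534 and 17.5 to 21.4 CPM). Each other gene of the list was at its highest there. Havcr1, which encodes kidney injury molecule 1, was at 58.8 CPM there and at 1.02 to 8.74 CPM in the other 11 libraries, and Lcn2, the lipocalin 2 gene, was at 15.6 CPM there and at 0.717 to 2.34 CPM elsewhere. The 10 macrophage genes summed to 288 CPM there, against 163 to 169 CPM in the other HIF2aM3 libraries and 91.1 to 206 CPM in the WT libraries. The 12 proximal tubule genes were at their lowest sum there, 27889 CPM, against 33203 to 36157.5 CPM in the other HIF2aM3 libraries and 29485 to 36693 CPM in the WT libraries. Kidney 1 of 17-56, with an injury sum of 1139 CPM and a macrophage sum of 169 CPM, was also above every library of the other 5 animals for Fga, Fgb and Fgg. Between genotypes none of the 15 passed the threshold, the smallest p being that of Clu, the clusterin gene (-0.62 ± 0.13, SE, edgeR adjusted p = 0.0519). Leaving out kidney 2 of 17-56 gave log2 fold changes of 1.14 ± 0.43 for Fgb, 0.44 ± 0.19 for Fgg and 0.16 ± 0.20 for Fga. The part of injured tubule or of macrophages in these values was not tested beyond this.

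Hp was at 0.425 and 0.710 CPM in 17-51, 0.499 and 0.383 CPM in 17-53 and 1.11 and 1.63 CPM in 17-56, against 0.442 and 2.89 CPM in WT 1, 0.483 and 0.512 CPM in WT 2 and 0.434 and 0.553 CPM in WT 3. Kidney 2 of WT 1 was above all others, on 74 reads. That library also held reads of all 7 adipocyte genes, which summed to 0 to 0.240 CPM in the HIF2aM3 libraries, 13.5 CPM in that library and 0 to 0.215 CPM in the other 5 WT libraries. Adipoq, the adiponectin gene, had 1 read in all HIF2aM3 libraries and 60 in that one, and Lep, the leptin gene, had 1 and 50. Hp is known to be expressed in white fat as well as in liver. The log2 fold change of Hp was -0.21 ± 0.64 (SE) with that library and 0.64 ± 0.46 without it. With that library kept it was also positive without 17-53 (0.095) and on RPKM plus 0.1 (0.0056), so no direction is read from it. Summed per animal, Hp was at 0.461, 0.442 and 1.34 CPM in 17-51, 17-53 and 17-56. The WT animals were at 1.68, 0.495 and 0.496 CPM. The part of fat in the Hp value of kidney 2 of WT 1 was not tested. Hpx, the partner of Hp in heme clearance, had 28 reads in HIF2aM3 and 17 in WT animals, a ratio of 1.71 (0.903 to 3.32), with 13 of the reads in kidney 1 of 17-56.

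**Figure D2:**
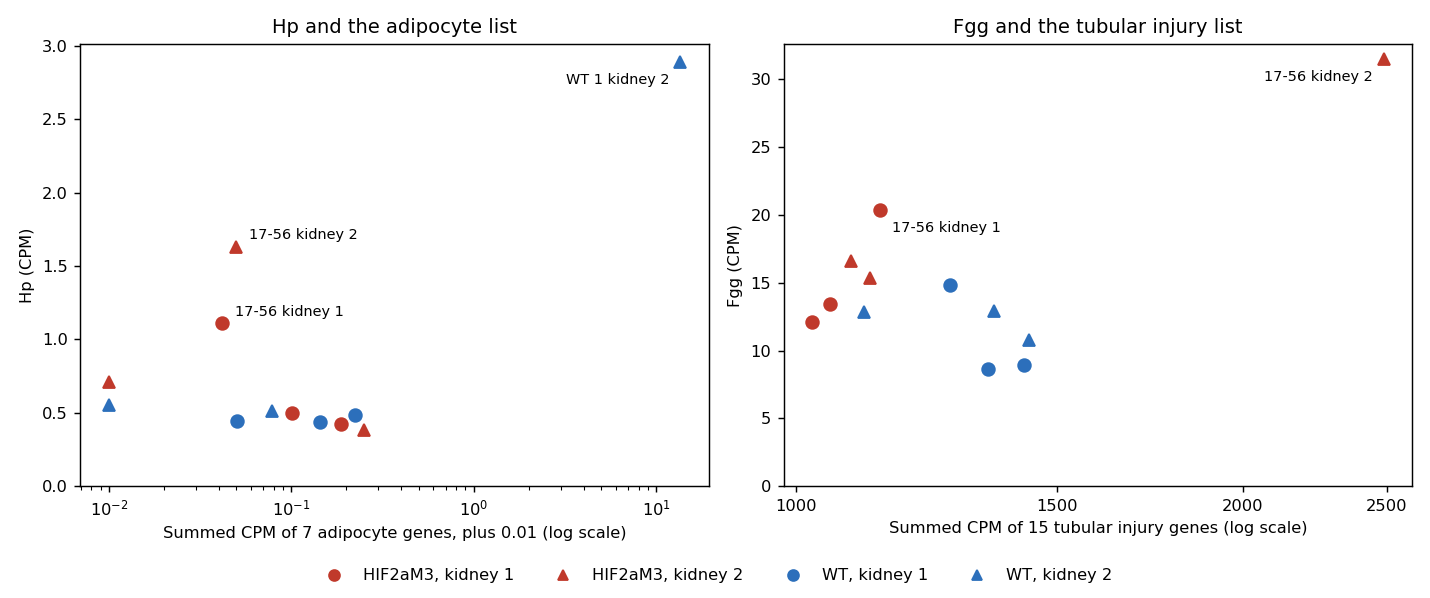
Left, CPM of Hp against the summed CPM of 7 adipocyte genes (plus 0.01, log axis) in each library; right, CPM of Fgg against the summed CPM of 15 tubular injury genes (log axis). Red marks are HIF2aM3, blue marks WT, circles kidney 1 and triangles kidney 2; WT 1 kidney 2 and 17-56 kidney 2 each stand apart, at 13.5 and 2490 CPM of the lists.

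Levels between genes can be compared only per length, for which the authors' RPKM (reads scaled to gene length and library size) were used. The gene lengths that the authors used are not stated, so the orders below hold for their RPKM only. In HIF2aM3 libraries the mean RPKM levels ran from Fgg (5.06) through Fga (4.46), Alb (3.83), Apoh (3.32), Fgb (2.36), A2m (1.62), Hp (0.586), F2 (0.346) and Hpx (0.130) to Ahsg (0.0468). Each neighbouring pair in that order overlapped in its range over the 6 libraries. In WT libraries the order was Apoh (4.77), Alb (3.61), Fga (3.45), Fgg (3.12), Fgb (0.919), Hp (0.614), Hpx (0.0757), A2m (0.0335), Ahsg (0.0233) and F2 (0.00689). Here the ranges did not overlap between Apoh and Alb, between Fgg and Fgb, between Hp and Hpx, or between Ahsg and F2. The authors' RPKM has about 1 read added to every count, so the levels of Ahsg in both genotypes and of F2 in WT are mostly that added read and their order is not read as a difference. In the shallow kidney 2 of 17-51, Ahsg and Hpx each stood at 0.147 RPKM on 0 reads. By rank of the mean A2m was number 6 in HIF2aM3 and number 8 in WT libraries. Single libraries departed from that order: in kidney 1 of 17-53 A2m was at 2.97 RPKM, above Fga (2.80) and Fgb (1.18). In that library Fga had more CPM than A2m (16.1 against 15.1) on fewer GENCODE M21 exon bases (3010 against 7021). Scaled to those bases Fga would stand above A2m, so the order of these genes depends on the lengths.

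The kidneys of 17-53 differed for F2 and A2m. F2 had 312 reads in kidney 1 and 45 in kidney 2, a depth-scaled ratio of 6.57 (4.79 to 9.19), and A2m had 665 and 264, a ratio of 2.39 (2.07 to 2.76). Ranked by this ratio, F2 was number 8 and A2m number 73 of the 18922 genes with at least 20 reads in that animal. The other 6 members with enough reads had ratios of 0.720 to 1.30. So 2 of 8 members were at least 2-fold higher in kidney 1, where 138 genes (0.729%) were, and no member was at least 2-fold lower, where 0.481% were. With 1 library a side there is no test, and this contrast was used to choose the members.

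In the other HIF2aM3 animals the ratios of F2 and A2m were also above 1, but that of F2 differed in size between them. The counting intervals of F2 in 17-56 and of A2m in 17-51 included 1. F2 had 84 reads in kidney 1 and 2 in the shallow kidney 2 of 17-51, a ratio of 6.28 (1.69 to 52.7), and 71 and 49 reads in 17-56, a ratio of 1.15 (0.790 to 1.69). A2m had ratios of 1.43 (0.911 to 2.36) and 1.31 (1.08 to 1.59) in those animals. A2m had 2.13 reads per F2 read in kidney 1 of 17-53 and 5.87 in its kidney 2, a contrast used to choose the members. The proportion was 3.99 and 3.51 in the kidneys of 17-56 and 2.39 and 10.5 in those of 17-51. The high end, 10.5, rests on 2 F2 reads.

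The genotype comparison that was in view when the members were chosen used all animals. Kidney 1 was tested against kidney 2 within the 5 animals whose kidney difference was not used for that choice. In all, 6 of 18868 genes were called (0.0318%), and 0 of the 8 members tested were (edgeR; 1601 genes had an unadjusted p under 0.05, among them Fgg, Fgb and Hp; DESeq2 called 30 genes and no member). F2 and A2m entered this comparison through their HIF2aM3 libraries. With 4 WT reads, F2 rests on 17-51 and 17-56, and its log2 ratio of 0.71 ± 0.37 (SE) was 0.31 ± 0.38 without 17-51 and 2.29 ± 0.69 without 17-56, so nothing is read from it. The log2 ratio of A2m was 0.36 ± 0.17 (adjusted p = 0.588). The fibrinogen genes were lower in kidney 1 in 5 of the 6 animals and higher in WT 2. Their log2 ratios were -0.47 ± 0.18 for Fgb (adjusted p = 0.474), -0.32 ± 0.12 for Fgg (adjusted p = 0.541) and -0.19 ± 0.09 for Fga (adjusted p = 0.628). Without WT 2 the Fgg ratio was -0.48 ± 0.08 and passed the threshold (adjusted p = 0.00835). That fit leaves out the animal with the opposite direction. It gave the only 1 of 78 member values under the alternatives that gained a call, so no kidney difference is read from it. Hp had -0.99 ± 0.35 (adjusted p = 0.457), or -0.40 ± 0.27 (adjusted p = 0.848) without WT 1. Alb had 0.16 ± 0.10 (adjusted p = 0.708) and Apoh 0.09 ± 0.07 (adjusted p = 0.793).

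**Figure D3:**
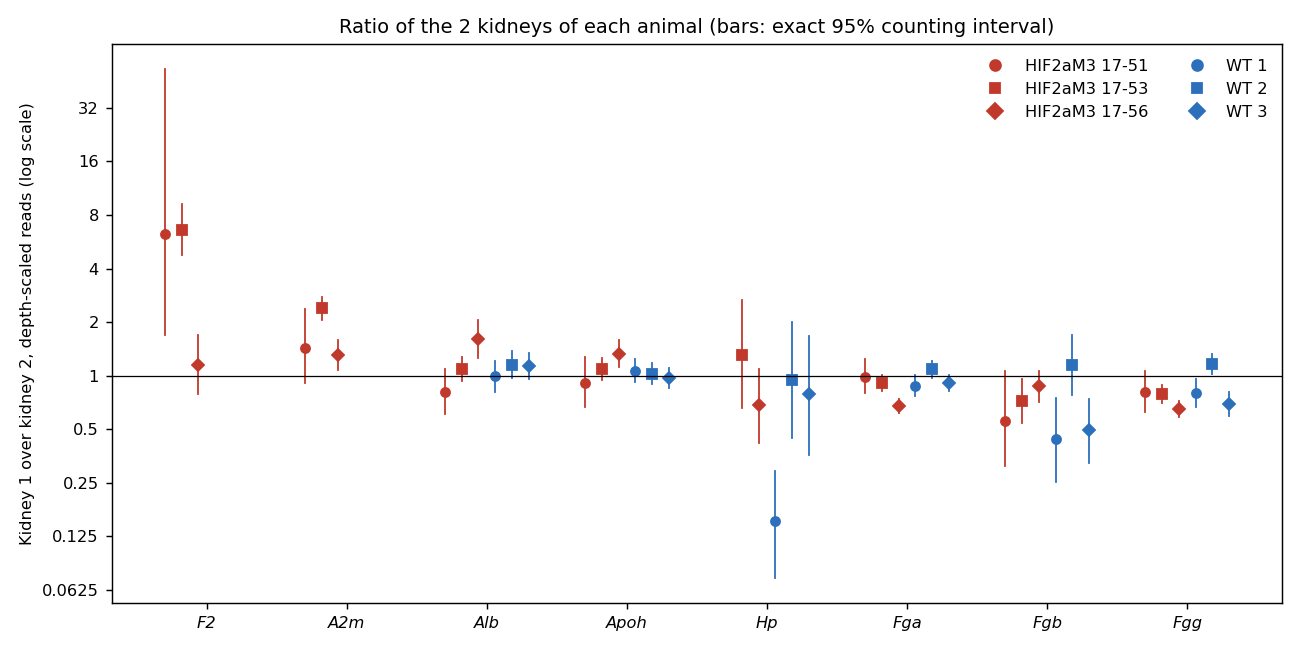
Depth-scaled read ratio of kidney 1 over kidney 2 (log axis) for each animal with at least 20 reads of the gene, HIF2aM3 in red left of WT in blue; bars are exact 95% counting intervals. F2 is at 6.57 in 17-53, 6.28 in 17-51 and 1.15 in 17-56, while the fibrinogen genes lie below 1 in all animals except WT 2.

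Other genes of liver plasma proteins were examined as lists, all read against 1.93% called higher and 1.82% called lower and a median log2 fold change of 0.00 over all genes tested. Of 13 tested genes of coagulation and fibrinolysis, 1 rose and 0 fell, with a median of 0.16. It was Cpb2, which encodes a carboxypeptidase that slows fibrinolysis, at 0.917 ± 0.213 CPM in HIF2aM3 and 0.256 ± 0.0738 CPM in WT animals (log2 fold change 1.86 ± 0.30, SE, edgeR adjusted p = 0.0279). F7, F9, F11 and F12 were too low to test, with 1 to 9 reads in HIF2aM3 and 0 to 17 in WT animals. Of 9 acute phase genes, 1 rose and 0 fell (median 0.43): Fgl1, a fibrinogen-like secreted protein gene of the liver, was at 3.83 ± 1.23 CPM in HIF2aM3 and 0.705 ± 0.0903 CPM in WT animals (2.43 ± 0.27, adjusted p = 0.0141). The Cpb2 call ended without WT 1, WT 3, 17-51 or 17-53 (adjusted p = 0.0651 to 0.118), and the Fgl1 call ended without 17-51 (0.0566) or 17-53 (0.0716).

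Among apolipoproteins 2 of 8 rose and 0 fell (median 0.30). Apoc3, which encodes an inhibitor of lipoprotein lipase, was at 57.6 ± 15.2 CPM in HIF2aM3 and 3.31 ± 0.675 CPM in WT animals (log2 fold change 4.12 ± 0.26, SE, edgeR adjusted p = 0.00459), a call that held when each animal was left out in turn. Apoa4, an apolipoprotein gene of the gut and liver, was at 46.4 ± 18.3 CPM in HIF2aM3 and 1.34 ± 0.861 CPM in WT animals (5.12 ± 0.54, adjusted p = 0.0143). Its call ended without WT 1 (0.0775), 17-51 (0.0566) or 17-53 (0.0708), and it overlaps Gm47528 and Gm10680 on the opposite strand. Of 14 complement genes 0 rose and 1 fell (median 0.26), namely C8g, which encodes a chain of the membrane attack complex, at 7.89 ± 1.12 CPM in HIF2aM3 and 12.4 ± 0.0548 CPM in WT animals (-0.66 ± 0.10, adjusted p = 0.0265). That call ended without WT 1, WT 3, 17-51 or 17-53 (0.0566 to 0.112).

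Of 12 genes of carriers and inhibitors 0 passed the threshold in either direction, with a median of -0.74. The smallest p was that of Serpina1d, an α1-antitrypsin gene (-1.65 ± 0.41, SE, edgeR adjusted p = 0.0714). The Serpina1 genes are near-identical copies, so how their reads were divided is uncertain. Their log2 fold changes ran from -1.65 to -1.07, and those of the other tested genes of the list from -0.92 to 0.56. The median therefore leans on these copies. In 17-53, 138 of 18922 genes (0.729%) were at least 2-fold higher in kidney 1. Of the 12 carrier and inhibitor genes 4 were (Serpina1a, Serpina1c, Serpina1d and Serpina1e), which as near-identical copies are not 4 separate observations. Of 6 apolipoproteins with enough reads Apoa4 was (88.3 CPM in kidney 1 and 35.5 CPM in kidney 2). No gene of the coagulation, acute phase or complement lists was. Serpina1a, Serpina1c and Serpina1e were named after their values were seen. In the 5 other animals Apoa4 had a log2 ratio of 0.67 ± 0.12 (adjusted p = 0.0847) and was higher in kidney 1 in 5 of 5, and Serpina1d had 0.66 ± 0.19 (adjusted p = 0.342). The depth-scaled ratio of Serpina1d was 2.32 in WT 1, 0.972 in WT 2, 1.84 in WT 3, 3.22 in 17-51 and 1.04 in 17-56.

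**Figure D4:**
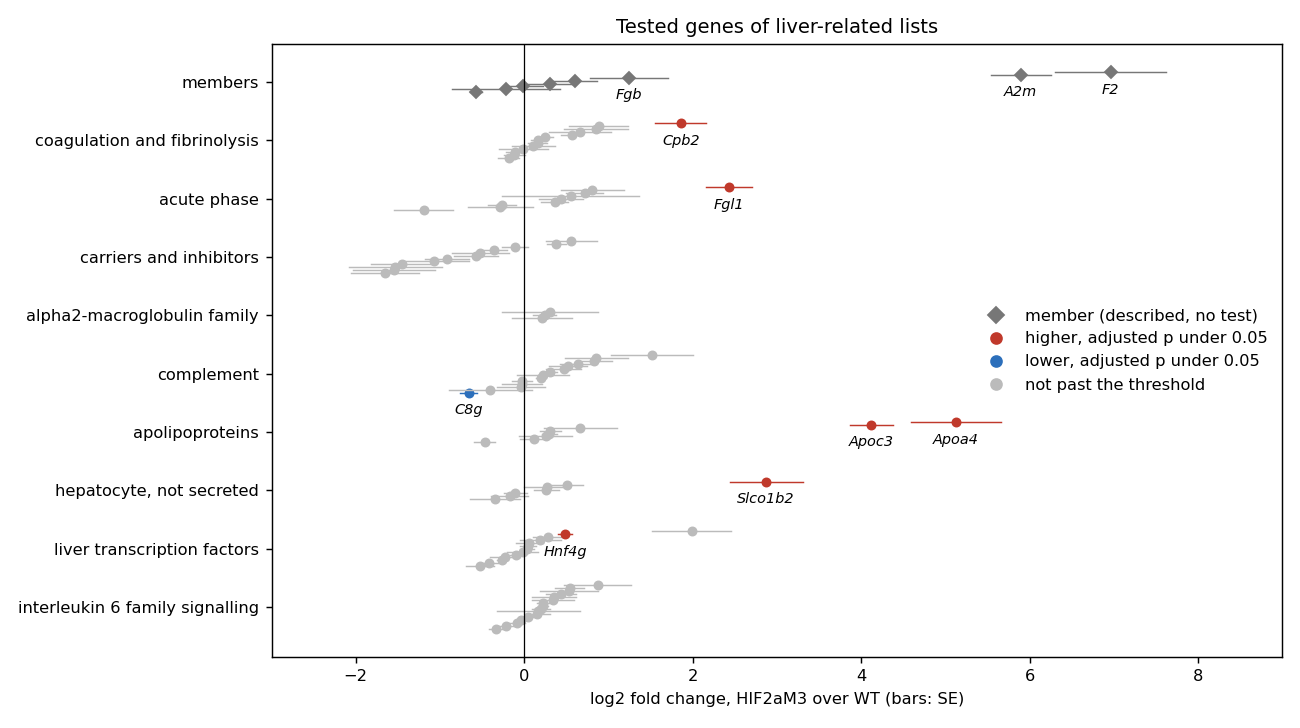
Log2 fold change of HIF2aM3 over WT (bars, SE) for the tested genes of the members and of 9 other lists; red is called higher and blue called lower at an adjusted p under 0.05, and members are grey diamonds without a test. F2 and A2m lie beyond every listed gene, followed by Apoa4 (5.12) and Apoc3 (4.12).

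A further list held hepatocyte genes other than those of the plasma proteins, mostly enzymes and transporters. Of the 19 in the table, 12 were too low to test and together had 112 reads in the 6 HIF2aM3 libraries and 83 in the 6 WT libraries. Cps1, the first enzyme of the urea cycle, Tat, tyrosine aminotransferase, and Mup3, a major urinary protein that hepatocytes secrete, each had 1 read in HIF2aM3 and 0 in WT animals. Of the 7 tested, 1 rose and 0 fell (median 0.26). Slco1b2, an organic anion transporter of hepatocytes, was at 1.26 ± 0.634 CPM in HIF2aM3 and 0.176 ± 0.0590 CPM in WT animals (log2 fold change 2.87 ± 0.43, SE, edgeR adjusted p = 0.0252), a call that ended without WT 1, WT 3, 17-51 or 17-53 (0.0584 to 0.0779). The list's sum, 1791 to 2539 CPM per HIF2aM3 animal and 2142 to 2242 CPM per WT animal, was nearly all Cyp2e1, which the kidney also expresses (2019.5 CPM in HIF2aM3 and 2171 CPM in WT animals on average). Gys2, the liver glycogen synthase gene, was at 24.7 CPM in HIF2aM3 and 20.6 CPM in WT animals and did not pass the threshold.

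Of 13 tested liver transcription factors 1 rose and 0 fell (median 0.03). Hnf4g, which encodes the nuclear receptor HNF4γ, was at 21.9 ± 0.584 CPM in HIF2aM3 and 15.7 ± 1.66 CPM in WT animals (log2 fold change 0.49 ± 0.08, SE, edgeR adjusted p = 0.0302), a call that ended without WT 3, 17-51, 17-53 or 17-56 (0.0732 to 0.111). Hnf4a, which encodes the related receptor HNF4α, was at 1153 CPM in HIF2aM3 and 1128 CPM in WT animals and did not pass the threshold. Of 16 tested genes of interleukin 6 family signalling 0 passed (median 0.21), the smallest p being that of the kinase gene Jak2 (0.22 ± 0.06, adjusted p = 0.0859). Il6 itself was too low to test.

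Receptors and uptake of these proteins gave 1 rise and 1 fall among 25 tested genes (median 0.16). Plau, the urokinase plasminogen activator gene, was at 708 CPM in HIF2aM3 and 353 CPM in WT animals on average (log2 fold change 1.00 ± 0.19, SE, edgeR adjusted p = 0.0419). Amn, which anchors the albumin receptor cubilin in the proximal tubule, was at 97.1 and 127 CPM in HIF2aM3 and WT animals (-0.38 ± 0.08, adjusted p = 0.0458). Leaving out any 1 animal ended the Plau call (0.0629 to 0.101), and leaving out any except WT 2 ended the Amn call (0.0732 to 0.118). The megalin gene Lrp2, the cubilin gene Cubn and the thrombin receptor gene F2r were not past the threshold. Lists of other cells gave 0 calls among 6 erythrocyte, 7 platelet, 2 adrenal and 2 pancreas genes tested. Of 10 macrophage genes 1 rose, Csf1r (0.58 ± 0.10, adjusted p = 0.0349, lost without WT 1, 17-51, 17-53 or 17-56 at 0.0699 to 0.124). Of 12 proximal tubule genes Slc5a12 rose (0.49 ± 0.10) and Slc22a6 fell (-0.50 ± 0.11), both with an adjusted p of 0.0483 that was lost without any 1 animal except WT 2 (0.0769 to 0.161).

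The members lie on 8 mouse chromosomes, and only the fibrinogen genes lie together, on chromosome 3. The 3 nearest tested genes on each side of a member were taken, passing over genes too low to test. Of these 48 genes 0 rose and 1 fell, where 1.93% of all genes tested rose and 1.82% fell. The 1 that fell was Lrp4, a receptor gene near F2, at 26.9 ± 1.15 CPM in HIF2aM3 and 35.7 ± 1.83 CPM in WT animals (log2 fold change -0.41 ± 0.06, SE, edgeR adjusted p = 0.0235).

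By correlation of log2(CPM + 0.5) over the 12 libraries, the 5 genes most like F2 were A2m (r = 0.937), Rbbp4 (0.927), Cfap65 (0.918), Rflnb (0.910) and the unnamed Gm10680 (0.906). Those most like A2m were Rflnb (0.987), Apoc3 (0.981), Gm10680 (0.978), Atg4c (0.976) and Gabpb2 (0.975). The libraries come in pairs from 6 animals in 2 genotypes, so a gene that differs between the genotypes at all can reach a high r. Rbbp4, a chromatin assembly factor gene, was at 115 to 123 CPM in HIF2aM3 and 107 to 112 CPM in WT libraries, a far smaller difference than that of F2. Within the 6 HIF2aM3 libraries, which include the kidneys of 17-53 used to choose the members, the r of A2m was 0.967 with Rflnb, 0.929 with F2 and 0.368 to 0.630 with the other 4 genes. In 17-53 the ratio of kidney 1 over kidney 2 was 2.61 for Gm10680, 1.59 for Cfap65 and 1.03 for Rbbp4. Gm10680 overlaps Apoa4 in exons on the opposite strand, and Apoa4 had a ratio of 2.48 in that animal. The strand setting of the counts is not stated, so reads of Gm10680 and Apoa4 cannot be separated.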

How the data were processed

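Members and gene lists were chosen with earlier results of these data known. RNA was sequenced after TruSeq preparation, per the labels' protocols, and aligned to mm9, per the submitters' processing notes; aligner, counter, annotation and strand setting are not stated there. Read counts, unscaled, were used as the authors deposited them. The deposited RPKM has about 1 read added to each count by the authors, as its values show. The deposited log2 fold, ratio, signal (average counts) and q-value columns were made by the authors from the 2 groups, per the file headers, and were not used.

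The animal is the replicate, so counts of its 2 kidneys were summed (totals of 32392033 to 85018818 in HIF2aM3 and 51309463 to 66566563 in WT animals). Genotypes were compared with edgeR 4.0.16 in R 4.3.3 (filterByExpr, TMM, robust quasi-likelihood test, two-sided, Benjamini-Hochberg adjusted p under 0.05 over all genes), with SE taken from the fold change and the F statistic. The kidney comparison took 10 libraries with the animal as a blocking term. CPM is TMM-scaled, and means ± SD are over 3 animals. The p-values of the genotype comparison set the difference against variation between animals, estimated with information shared across genes. Those of the kidney comparison set it against variation left after the animal term. Read ratios have exact (Clopper-Pearson) 95% intervals. Symbols came from GENCODE M21 (24630 of 27412 IDs), which is on another build than the counts and served for names, order and overlaps. Fits were tested on simulated data. The naming rule took all members, up to 4 called genes of each list by adjusted p or the 1 with the smallest p, and the 5 genes most correlated with F2 and A2m at a mean of at least 1 CPM; other genes were named after their values were seen. Alternatives are DESeq2 1.42.0, limma 3.58.1, scaling, filters, RPKM pseudocounts, and left-out kidneys or animals. One gene of the liver transcription factor list is not reported here by name.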

Additional observations from a re-analysis of the deposited data

Results flagged for a closer look

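Each gene's 6 libraries per genotype were searched for 1 value far from the rest, in 20 sets, of which chance flags about 1 in 20, and kidneys of 1 animal are not independent. Hp in kidney 2 of WT 1, at 2.89 CPM (74 reads), lay far above the other WT libraries, and the same library held the adipocyte reads described above. The other 3 rest on 1 to 3 reads. Ahsg was at 0.0633 CPM in kidney 1 of 17-56 (2 reads) and at 0.0268 CPM in kidney 1 of WT 2 (1 read), with 0 reads in the other 5 libraries of each group. F2 was at 0.1002 CPM in kidney 1 of WT 3 (3 reads), where the other WT libraries had 0 or 1 read.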

How the results depend on the processing

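The number of genes called between genotypes, 733 with animals as replicates, was 4829 with 12 libraries as replicates, 2795 with limma voom and the animal as a random block, 2038 with DESeq2, 337 with kidney 2 only, 140 and 114 with limma on RPKM plus 0.1 and plus 1, and 480 without kidney 2 of WT 1, an alternative chosen after seeing the data like the others that leave out 17-56 kidney 2 or WT 1 and 17-56 together. Leaving out 1 animal gave 11 (without 17-53) to 1549 (without WT 2). The 6 kidney calls became 17 with all 6 animals, 0 without the animal block, 30 with DESeq2, 99 without a count filter, 3 without WT 1 and 17-56, and 2 (without WT 1) to 62 (without WT 3) when 1 animal was left out. In 17-53, 1.21% of genes passed a 2-fold ratio in either direction, and 0.396% with at least 50 reads. The signs of F2, A2m, Apoh, Fgb and Fgg between genotypes held under all alternatives, that of Hp, Alb and Fga did not. F2 was at 2.00 and 0.41 and A2m at 3.66 and 1.33 on log2 RPKM plus 0.1 and plus 1, which shrink low genes by construction. The sign turned for Mc2r with kidney 1 only (-0.12) and for the kidney ratio of Apoh without WT 1 and 17-56 (-0.024); the cause was not tested. For the 20 named genes of the other lists, 312 of 417 values kept direction and side of the threshold, 85 lost the call, 19 gained it and 1 turned. No paired analysis was possible because animals of the 2 genotypes share no number. Depth limits Ahsg, Hpx, F2 in WT animals and all values of kidney 2 of 17-51.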
